A study of Mus musculus with 6 samples.

Results

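The baseline state of brown adipocytes in culture was described from the 3 libraries that received only the solvent DMSO, of 6 libraries in the series. All libraries of the series come from immortalized mouse brown preadipocytes; the labels do not say whether these are a single clone. The cells were grown to confluence and induced to become fat cells for 3 days with 20 nM insulin, 1 nM T3 (the active thyroid hormone), 0.5 mM IBMX (a phosphodiesterase inhibitor), 500 nM dexamethasone (a synthetic glucocorticoid) and 0.125 mM indomethacin (a cyclooxygenase inhibitor). Insulin and T3 alone were kept for 4 more days, and on day 7 the cells were left with DMSO for 16 h. The remaining libraries, exposed to 100 nM rotenone, were not used. The 3 DMSO libraries are described as independent replicates, without saying whether each was its own culture. With 1 group there was no contrast between conditions, so levels are given for every library, and the one test used compared the libraries with each other.

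Brown adipocytes store triglyceride in many small droplets and burn fatty acids in mitochondria whose inner membrane can be made leaky to protons by the uncoupling protein UCP1, which turns fuel into heat. Norepinephrine from sympathetic nerves switches this on through beta-adrenergic receptors, cyclic AMP and lipolysis, and the nuclear receptor PPAR gamma with C/EBP alpha holds the fat cell program in place. A dish holds no blood vessels, nerves or immune cells unless they were carried in, so genes of those lineages serve as a check on other cell types.

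Total counts were 29194179, 28209306 and 26085061 in replicates 1, 2 and 3, and a count of 3 equalled 0.103, 0.106 and 0.115 CPM, the unit of counts scaled to equal library totals. A gene was called silent here when it had no more than 3 counts in each library, a limit that covers counting error only. Of 26214 genes listed, 12567 reached 1 CPM in all 3 libraries, 10141 were silent and 8504 had no count at all. CPM is given for the level of a gene across libraries and for shares of counts; levels of different genes were compared per length, as counts divided by merged exon length and scaled to the same sum in each library (TPM). No mitochondrially encoded gene was analysed here. The ribosomal RNA precursor Rn45s took 2.51% to 3.17% of counts and had no length, so it has no TPM.

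All 5 marker genes of a fat cell were present in every library. Fabp4 (chr3:10204088-10208576, GRCm38), the cytosolic fatty acid carrier of fat cells, stood at 5663, 5042 and 4974 CPM in replicates 1, 2 and 3. Plin1 (chr7:79720218-79732903), the coat protein of mature lipid droplets, stood at 847, 882 and 869 CPM. Among all genes ranked per length, Fabp4 came 3rd and Plin1 311th. Cebpa (chr7:35119293-35121928) read 592, 568 and 549 CPM and Pparg (chr6:115360951-115490399) 502, 480.0 and 501 CPM. Their TPM were 507 ± 21.9 (SD, n = 3) for Cebpa and 487 ± 17.0 for Pparg, so the pair of transcription factors that sustain the fat cell program were at similar levels per length. Ucp1 (chr8:83290352-83298452), the gene that defines the heat-producing kind of fat cell, read 75.4, 74.4 and 56.0 CPM; per length it was lower than the other markers, at 98.3 ± 15.5 TPM, rank 1642. Replicate 3 was the low one for Ucp1, and replicates 1 and 2 were close together. In bulk RNA, fewer cells of a type and less RNA per cell cannot be told apart.

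General fat cell genes other than the markers were all present: 18 of 18 had a mean of at least 1 CPM, against 12894 of all 26214 listed genes. Adipoq, the hormone adiponectin, reached 1282, 1140.2 and 1138 CPM, and Lpl, which releases fatty acids from circulating lipoproteins, reached 2280.2, 2060.5 and 2260.4 CPM. Cfd (adipsin) had 390.2, 433 and 375 CPM. Lep (leptin) and Retn (resistin), hormones typical of white fat, had 71.8, 66.9 and 59.8 CPM and 60.6, 44.9 and 51.4 CPM. Per length, Adipoq was at 2153 ± 168 TPM against 47.6 ± 4.50 TPM for Lep and 77.7 ± 12.5 TPM for Retn, and the libraries of Adipoq did not overlap those of either. Gpihbp1, which anchors lipoprotein lipase on capillary walls and is made by endothelial cells, had no count in any library and was looked up after its values were seen.

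Genes typical of brown fat were present in a wide range, with 18 of 20 at a mean of at least 1 CPM. Of all 26214 listed genes, 12894 reached that mean. Per length, Cidea, a lipid droplet protein abundant in brown fat, and Cox7a1, a subunit of cytochrome c oxidase found in heat-producing and muscle tissue, led at 1509 ± 138 TPM and 1430.0 ± 16.0 TPM, and their libraries overlapped. Cox8b, another tissue-restricted oxidase subunit, followed at 427 ± 45.4 TPM. Kcnk3 (a potassium channel) had 147, 127 and 132 TPM, Ppara 123, 115 and 112 TPM and Adrb3, the beta-3 adrenergic receptor, 109.7, 102 and 99.4 TPM. Ucp1 stood 9th in this order, and its range overlapped that of Adrb3 just above it but not that of Ebf2, a transcription factor that marks brown precursors, just below at 65.0 ± 3.30 TPM. Zic1, a marker of interscapular brown fat, read 43.1, 46.2 and 47.8 CPM, and Prdm16, a coregulator of the brown fat program, 40.2, 36.6 and 35.1 CPM. Elovl3, a fatty acid elongase induced by cold, was at 27.3, 26.2 and 26.6 CPM. The 2 that fell short were Dio2, the deiodinase that makes T3 within brown fat, at 0.240, 0.0354 and 0 CPM, and Epsti1, with no count. Lhx8 was near the detection limit at 1.30, 1.38 and 0.537 CPM.

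Of markers proposed for beige or white fat, 7 of 15 reached a mean of 1 CPM, as did 12894 of all 26214 listed genes. Nr1h3, which encodes the liver X receptor alpha and is widely expressed, had 45.2, 49.1 and 42.7 CPM. Tbx15 had 13, 12.5 and 15.2 CPM and Shox2 11.9, 8.22 and 11.5 CPM. Agt, Nnat, Tbx1 and Hoxc8 also passed 1 CPM, at means of 6.24, 4.28, 1.76 and 1.30 CPM. Tcf21 and Wt1, transcription factors of white and visceral fat precursors, had no count in any library. Tmem26 and Tnfrsf9, surface proteins used to sort beige cells, were at means of 0.637 CPM and 0.180 CPM. Precursor and fibroblast genes were present more widely, with 17 of 20 at a mean of 1 CPM or more. Col1a1 and Col1a2, the chains of type I collagen, had 838, 982 and 886 CPM and 687, 782 and 708 CPM. Prrx1 (a mesenchymal transcription factor) read 131, 124 and 131 CPM, and Pdgfra, the receptor that marks fat precursors, 21, 19.7 and 19 CPM. Dpp4, a marker of early interstitial precursors, and the proteoglycan gene Lum were silent. Undifferentiated cells were not measured, so the precursor genes cannot be assigned to cells that had or had not differentiated.

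The most abundant messages came from glucose use, fat synthesis and respiration. Scd1 (chr19:44394455-44407879), the desaturase that makes oleate, took 31989.8, 29700.1 and 31084 CPM, more than any other gene in each library. Gapdh, a glycolytic enzyme, had 12523, 13687 and 13364 CPM. Per length the order of these changed: Gapdh led at 20669.6 ± 755 TPM, Scd1 followed at 15000.2 ± 712 TPM and Fabp4 at 13673 ± 1102 TPM, and the libraries of Scd1 and Fabp4 overlapped. Bsg (basigin), the chaperone of lactate transporters, was 4th per length at 9011 ± 307 TPM, with a range that overlapped that of Lgals1 (galectin-1) at 8684 ± 321 TPM.

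**Figure D1:**
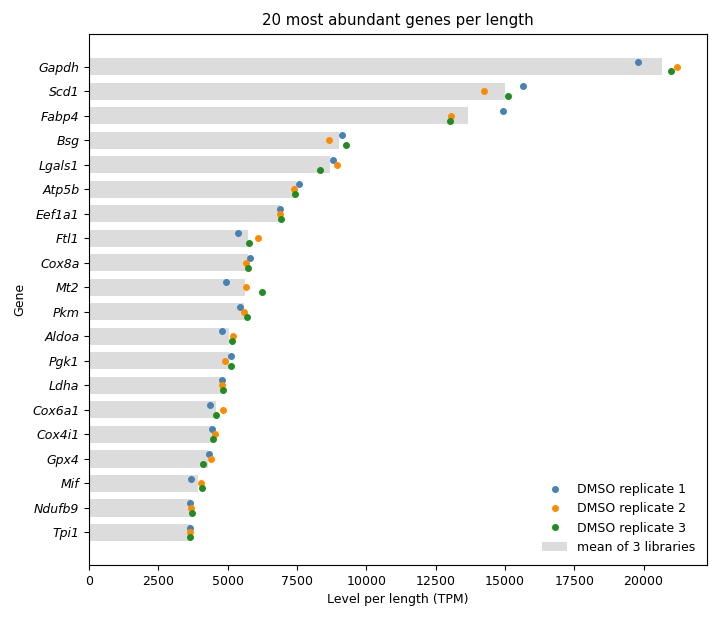
Levels per length (TPM, linear axis) of the 20 most abundant genes, with a grey bar for the mean and a coloured point for each DMSO library. Gapdh stands apart from the others, the points of Scd1 and Fabp4 overlap, and from Ftl1 downward most neighbours overlap.

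Of the 20 most abundant genes by CPM, 8 belong to glycolysis (among them Pkm, Aldoa, Pgk1, Ldha, Eno1, Tpi1 and Gpi1) and 1 to the respiratory chain (Atp5b). Of the 20 most abundant per length, 6 belong to glycolysis and 5 to the respiratory chain, whose short messages gain from the correction. Atp5b, the catalytic beta subunit of ATP synthase, read 7581, 7381 and 7409 TPM. Cox8a, Cox6a1 and Cox4i1, nuclear subunits of cytochrome c oxidase, read 5729.8 ± 79.1, 4578 ± 234 and 4472 ± 49.9 TPM. Ftl1, the ferritin light chain that stores iron, had 5386, 6106 and 5751 TPM, and Mt2, a zinc-binding metallothionein, 4942, 5642 and 6233 TPM with replicate 1 lowest. Cs, citrate synthase of the citric acid cycle, was in the list by CPM at 2484, 2497 and 2487 CPM. Fasn, fatty acid synthase, was there too at 2352, 2577 and 2488 CPM, but its long message left it at 576 ± 20.9 TPM. In all, 12 genes were in both lists.

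The 100 most abundant genes held 25.4% ± 0.30 of counts (SD, n = 3), and 79 genes exceeded 1000 CPM. Ranked per length, the top 100 held 30.7% ± 0.18 of the summed level. The single most abundant gene held 3.09% of counts, and the top 1000 genes 55.5%.

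Counts were then shared out among lists of cell functions, some of which have a few genes in common. Fatty acid synthesis (16 genes) took 4.72% ± 0.13 of counts, with most of it from Scd1 and Scd2, and glycolysis (20 genes) 4.55% ± 0.13. The nuclear genes of the respiratory chain (75 genes) took 4.07% ± 0.054, cytosolic ribosomal proteins (83 genes) 3.15% ± 0.14, and lipid droplet and fat storage genes (26 genes) 2.14% ± 0.074. Per length, the order was another one, with the respiratory chain at 9.02% ± 0.083 of the summed level, ribosomal proteins at 7.73% ± 0.285, glycolysis at 5.55% ± 0.12, lipid droplet and fat storage genes at 3.04% ± 0.17 and fatty acid synthesis at 2.35% ± 0.086. The citric acid cycle (22 genes) took 1.87% of counts and mitochondrial fatty acid oxidation (19 genes) 0.971%. The peroxisome list, which covers assembly factors and the enzymes of very long chain and ether lipid metabolism, took 0.465% of counts. In it, 36 of 36 genes had a mean of at least 1 CPM, against 12894 of all 26214 listed genes. Collagens and other matrix genes (37 genes) took 1.09% of counts, and adipokines (16 genes) 0.420%.

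Many steps of metabolism can be run by any of several related genes, and which one a tissue uses is a feature of its identity. Of 71 such families, 69 had a leading member averaging 1 CPM or more; not so the deiodinases and the ryanodine receptors, the calcium release channels of muscle. In 25 families the same gene made up at least 80% of the family's summed TPM in each of the 3 libraries, and in 7 it made up at least 99%. In 68 of the 69 the leader was above the second member in every library. The exception was the insulin receptor substrates, where Irs1 (23.6, 19.8 and 20.1 TPM) and Irs2 (19.8, 19.7 and 20.3 TPM) changed places between libraries. Without length correction the first and second genes changed places in 7 families: the hexokinases, pyruvate dehydrogenase kinases, uncoupling proteins, COX7A subunits, isocitrate dehydrogenases, superoxide dismutases and metallothioneins. Of the 268 family members, 38 were silent, against 38.7% of all listed genes.

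**Figure D2:**
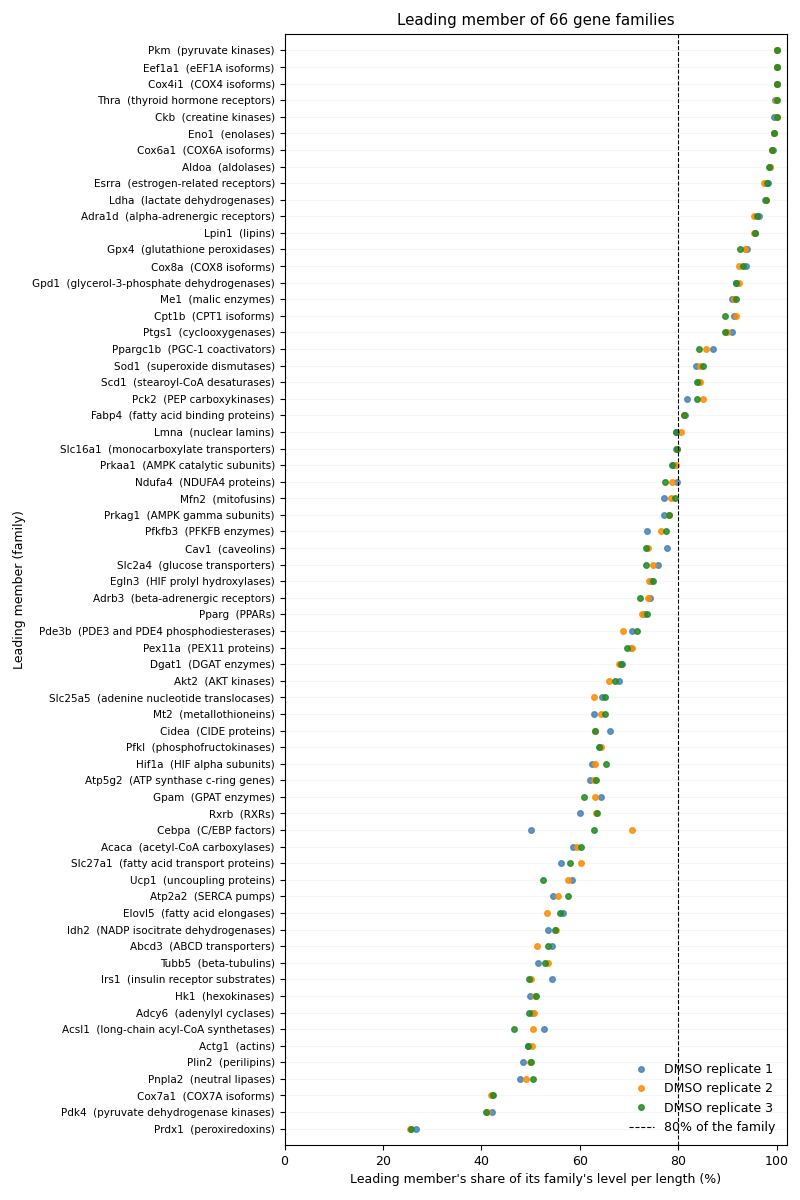
Share of the family's summed level per length (%, linear axis) held by the leading member of 66 of the 69 gene families, 1 point per DMSO library, with a dashed line at 80%. Points of 1 family lie close together except for Cebpa, which ranges from 50.0% in replicate 1 to 70.5% in replicate 2.

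Glucose enters fat cells through GLUT4, which insulin moves to the surface, and through the constitutive carrier GLUT1. Slc2a4, which encodes GLUT4, read 411, 389.8 and 404 TPM against 91.3, 90.8 and 106 TPM for Slc2a1 (GLUT1), 4.21 ± 0.346-fold higher (SD, n = 3). Phosphorylation was split: Hk1 (71.0, 71.5 and 72.7 TPM) and Hk2 (70.1, 68.2 and 68.7 TPM) were within 1.04 ± 0.0240-fold, with Hk1 above in each library only when length was corrected for. Liver-type Pfkl made up 64.1% of phosphofructokinase, ahead of platelet-type Pfkp at 22.3%. Further down, 1 gene dominated each step. Aldoa made up 98.6% of aldolases, Eno1 99.4% of enolases, Pkm all of the pyruvate kinase detected (Pklr, the liver form, was silent) and Ldha 97.8% of lactate dehydrogenases. Ldha, the form that favours lactate production, read 4807, 4806 and 4826 TPM and Ldhb 86.2, 78.0 and 82.1 TPM.

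Lactate leaves cells through monocarboxylate transporters, and Slc16a1 (MCT1) at 194, 176 and 184 TPM exceeded Slc16a3 (MCT4) at 49.1, 44.0 and 45.7 TPM. Entry of pyruvate into mitochondria's citric acid cycle is braked by pyruvate dehydrogenase kinases, of which Pdk4 (298, 277 and 276 TPM) and Pdk1 (257, 237 and 244 TPM) shared the lead. Pfkfb3, whose product raises the activator of phosphofructokinase, made up 75.9% of its family. Pck2, the mitochondrial PEP carboxykinase, stood at 132, 141 and 137 TPM and Pck1, the cytosolic form used by fat cells to make glycerol, at 29.3, 25 and 26.4 TPM. The Pck2 lead of 5.12 ± 0.571-fold held in all libraries.

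Most steps of fat synthesis had a clear leading gene. Scd1 made up 84.1% of stearoyl-CoA desaturases and Scd2 nearly all the rest, at 2868, 2569 and 2833 TPM. Acaca, the acetyl-CoA carboxylase of lipogenesis, had 182, 178 and 183 TPM, only 1.47 ± 0.0534-fold above Acacb, the mitochondrial form whose product restrains fat oxidation. Among elongases Elovl5, which extends polyunsaturated acids, led with 55.3% of the family, followed by Elovl1. Me1, which supplies NADPH for lipogenesis, made up 91.3% of malic enzymes, and Gpd1, which makes glycerol 3-phosphate, 92.0% of its family at 1550.4, 1649.8 and 1544 TPM. For the last steps to triglyceride, Lpin1 made up 95.6% of lipins and Gpam 62.7% of glycerol phosphate acyltransferases. Dgat1 exceeded Dgat2 by 2.16 ± 0.0334-fold, with 653, 587 and 596 TPM against 298, 277 and 275 TPM.

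On the droplet, Plin2, the perilipin found in most cells, had 1083, 1103 and 1115 TPM and Plin1, the perilipin of mature fat cells, 517, 528 and 527 TPM. The order of the perilipins rests on length: by CPM they were nearly level (865, 899 and 897 and 847, 882 and 869 CPM), and with the longest RefSeq-matched transcript in place of merged exons the lead of Plin2 shrank to a log2 difference of 0.06. Plin4 held 17.9% of the family, and Plin5, which tethers droplets to mitochondria, 3.74%. Cidea made up 64.1% of CIDE proteins and Cidec, which fuses droplets into large ones, 35.4%. Pnpla2, which encodes the first lipase of triglyceride breakdown (ATGL), read 848, 845 and 855 TPM and Lipe, hormone-sensitive lipase, 397, 410.4 and 385 TPM. Fabp4 held 81.2% of fatty acid binding proteins and Fabp5 18.7%, while 5 of the 9 members were silent. The ratio of Fabp4 to Fabp5 was among the steadiest, at 4.39, 4.31 and 4.32 in the 3 libraries.

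Long-chain fatty acids enter mitochondria through CPT1. Cpt1b, the carnitine palmitoyltransferase of muscle and brown fat, had 151, 139 and 128 TPM and Cpt1a, the liver form, 9.12, 7.78 and 8.07 TPM. Acsl1, the acyl-CoA synthetase of fat, led its family with 49.9% ahead of Acsl3 with 30.5%. Among the ABCD transporters, most of them peroxisomal, Abcd3 had 76.5 ± 3.07 TPM, ahead of Abcd4, a lysosomal member, at 47.2 ± 2.15 TPM. Pex11a, the PEX11 form that responds to PPAR alpha ligands, had 169, 169.8 and 158 TPM. Hmgcs1, the cytosolic enzyme of cholesterol synthesis, had 199.9, 191 and 213 TPM. Cyclooxygenases, the enzymes that turn arachidonic acid into prostaglandins, were low, with Ptgs1 at 6.72, 5.64 and 5.81 TPM and Ptgs2 at 0.673, 0.627 and 0.687 TPM.

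Several respiratory subunits exist as a general form and a tissue-restricted form. Cox4i1 (general) and Cox6a1 (general) made up 100.0% and 99.1% of their pairs. Cox8a (general) had 5814, 5657 and 5718 TPM against 385, 475 and 421 TPM for Cox8b. Of the oxidase subunits compared, COX7A was mixed: Cox7a1 (heart and brown fat form) at 1429, 1414 and 1446 TPM and Cox7a2 (general) at 1302, 1293 and 1276 TPM were within 1.11 ± 0.0218-fold. Ndufa4 had 1829, 1770.3 and 1735 TPM and its paralog Ndufa4l2, a gene that hypoxia induces in other cells, 464, 476 and 507 TPM. Atp5g2 provided 62.7% of the transcripts for the ATP synthase c-ring, the rotor. Slc25a5 (ANT2) exceeded Slc25a4 (ANT1), which carries ATP out of muscle mitochondria, with 1302, 1238 and 1258 TPM against 716, 732 and 673 TPM. Mfn2 exceeded Mfn1, both of which fuse mitochondria, by 3.60 ± 0.235-fold.

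Genes of heat production followed. Ucp1 made up 56.2% of the uncoupling protein family per length, with 109, 105 and 80.4 TPM, and Ucp2, the widespread relative, 37.1% with 64.5, 66.2 and 62.1 TPM. The lead of 1.53 ± 0.206-fold was seen in each library, but by CPM, with no length correction, Ucp2 was the higher. Ckb, the creatine kinase of the creatine cycle in brown fat, read 80.9, 88.3 and 80.2 TPM and made up 99.8% of its family. For calcium cycling, the pumps Atp2a2 (104, 92.5 and 101 TPM) and Atp2a3 (86.2, 73.0 and 73.5 TPM) were close, Atp2a1 of fast muscle held 0.334%, and no ryanodine receptor passed 3 counts in any library.

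Receptors and enzymes of the adrenergic and insulin pathways followed. Adrb3 made up 73.5% of beta-adrenergic receptors, with 109.7, 102 and 99.4 TPM. Adra1d made up 95.9% of alpha-adrenergic receptors, at a low 17.1, 19.3 and 17.3 TPM. Adcy6 and Adcy3, adenylyl cyclases that make cyclic AMP, had 80.4, 75.4 and 73.7 TPM and 53.2, 51.0 and 52.5 TPM. Pde3b, which degrades cyclic AMP under insulin's control, led phosphodiesterases with 70.4%. On the insulin side Akt2, the AKT form tied to glucose uptake, exceeded Akt1 by 2.34 ± 0.116-fold. Prkaa1 made up 79.1% of the catalytic subunits of the energy sensor AMPK.

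Transcription factor families were uneven too. Pparg made up 73.1% of PPARs, Ppara, which drives fatty acid oxidation, 17.5% and Ppard 9.38%. Rxrb (68.5, 74.2 and 72.8 TPM) exceeded Rxra (36.9, 34.0 and 33.2 TPM), the partners with which PPARs bind DNA. Thra held 99.9% of thyroid hormone receptors with 122, 125 and 126 TPM, while Thrb was at 0.891, 0.177 and 0.0767 CPM. Esrra made up 97.9% of the estrogen-related receptors, which turn on mitochondrial genes. Ppargc1b had 161, 150.1 and 141 TPM and Ppargc1a, the PGC-1 form that cold and cyclic AMP induce, 18, 18.1 and 19.4 TPM, 8.18 ± 0.838-fold apart. Hif1a exceeded Epas1 (HIF-2 alpha) by 1.78 ± 0.129-fold, and Egln3, a HIF prolyl hydroxylase, led with 74.4% of its family at 942, 889 and 935 TPM.

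Among proteins that handle oxidants and metals, Gpx4, which reduces lipid peroxides, made up 93.4% of glutathione peroxidases with 4321, 4413 and 4109 TPM. Sod1 made up 84.4% of superoxide dismutases per length. Prdx1 (555, 524 and 526 TPM) and Prdx5 (502, 508 and 488 TPM) were nearly level, and Prdx1 held no more than 26% of its family on average. Mt2 led metallothioneins with 4942, 5642 and 6233 TPM against 2907, 3136 and 3332 TPM for Mt1, a lead that turned when the longest RefSeq-matched transcript set the length. Idh2 (mitochondrial) and Idh1 (cytosolic), which both make NADPH, were within 1.20 ± 0.0413-fold. In the skeleton, Actg1 exceeded Actb by 1.31 ± 0.0256-fold, Tubb5 made up 52.6% of beta-tubulins, Lmna 79.8% of nuclear lamins and Cav1, the coat protein of the fat cell's surface pits, 75.0% of caveolins.

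Nuclear receptors as a whole are ligand-controlled transcription factors, and 30 of 49 reached a mean of 1 CPM, while 12 were silent. Of all 26214 listed genes, 12894 reached that mean and 10141 were silent. Pparg was first at 487 ± 17.0 TPM. A second tier followed in which neighbours overlapped: Thra (124 ± 2.09 TPM), Ppara (117 ± 5.65 TPM), Esrra (114 ± 10.1 TPM), Nr2f6 (101 ± 7.38 TPM) and Nr1h2 (97.7 ± 4.03 TPM), the liver X receptor beta. Below a gap came Rxrb, the clock repressor Nr1d1 (63.6 ± 4.73 TPM) and Ppard. Nr3c1, the glucocorticoid receptor that dexamethasone binds, was at 118, 120.5 and 127 CPM. Receptors of liver and gut (Nr1h4, Nr1i2, Hnf4a, Hnf4g, Nr0b2) and of steroid-producing glands (Nr5a1, Nr0b1) were silent. Nr1i3, also a receptor of liver, was low but not silent, at 0.548, 0.354 and 0.613 CPM.

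Hox genes record the position along the body axis from which a cell came, with low numbers active toward the head and high numbers toward the tail. Of 39 Hox genes, 24 averaged 1 CPM or more, 13 averaged 10 CPM or more, and 9 had no count in any library. Among all 26214 listed genes these numbers were 12894, 9700 and 8504. The Hoxb cluster was the fullest, with a summed 233, 243 and 248 TPM in replicates 1, 2 and 3, against means of 135 TPM for Hoxa, 29.9 TPM for Hoxc and 21.2 TPM for Hoxd. Hoxb2 (57.8, 60.2 and 65.9 TPM), Hoxa5 (50.7, 51.0 and 48.0 TPM) and Hoxb6 (36.4, 46.6 and 38.6 TPM) were the highest per length. In Hoxb every gene from Hoxb2 to Hoxb9 lay between 20.0 ± 1.83 TPM (Hoxb5) and 61.3 ± 4.18 TPM (Hoxb2). The other clusters were narrower: Hoxa peaked at Hoxa5 and fell to 1.48, 0.891 and 0.586 TPM at Hoxa9, Hoxc6 (23.8, 21.4 and 23.5 TPM) stood alone in its cluster, and so did Hoxd8 (14.8, 13.9 and 13.5 TPM). Tailward of group 9 nothing reached 1 CPM: Hoxa11, Hoxa13, Hoxc11 and Hoxd10 to Hoxd13 had no count, and Hoxa10 was at 0.308, 0.709 and 0.537 CPM. At the head end, Hoxb1 and Hoxd1 had no count.

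**Figure D3:**
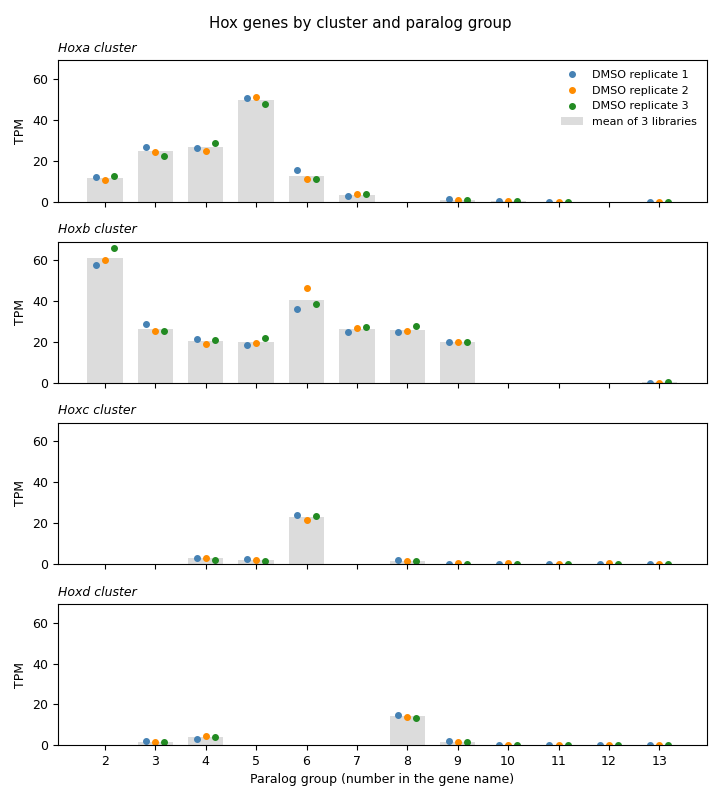
Levels per length (TPM, linear axis, 1 scale for all panels) of Hox genes by paralog group, from group 2 on, in the 4 clusters, with a grey bar for the mean and a point for each DMSO library; groups with no bar position have no gene in that cluster. Hoxb is filled from group 2 to group 9, Hoxa peaks at group 5, Hoxc at group 6 and Hoxd at group 8, and groups 10 to 13 are at or near 0.

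Genes that define other lineages were mostly off. Of 173 such genes, 101 (58.4%) were silent, 82 of these had no count in any library, and 36 had a mean of at least 1 CPM, of which 11 reached 10 CPM. For scale, 38.7% of all listed genes were silent, as was 1 of 42 genes in the marker, general and brown fat lists. A mean of at least 1 CPM was reached by 12894 of all 26214 listed genes. Alb (albumin) is among the 36 through replicate 1 alone, with 107, 0 and 0 counts. Of 32 genes of macrophages, lymphocytes and red cells, 21 had no count in any library and 4 reached a mean of 1 CPM (Foxp3, Cd68, Klf1 and Gata3). Among those with no count were Ptprc (the CD45 antigen of all white blood cells), Adgre1, Mrc1 and the C1q genes of macrophages, Cd3e, Cd4 and Cd8a of lymphocytes, and the globin genes. Of macrophage genes only Cd68, a lysosomal protein, exceeded 1 CPM, at 2.26, 3.51 and 3.37 CPM. Of 12 genes of endothelial cells, 6 were silent and 3 had a mean of at least 1 CPM. Cdh5 was at 0, 0.0354 and 0 CPM and Tie1, Erg and Cldn5 at 0. Flt1 read 1.68, 1.63 and 2.68 CPM and Eng 2.53, 1.45 and 2.22 CPM. Egfl7 was the highest of that list per length at 6.08 ± 0.390 TPM, and the list's 12 genes summed to 9.48 CPM.

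**Figure D4:**
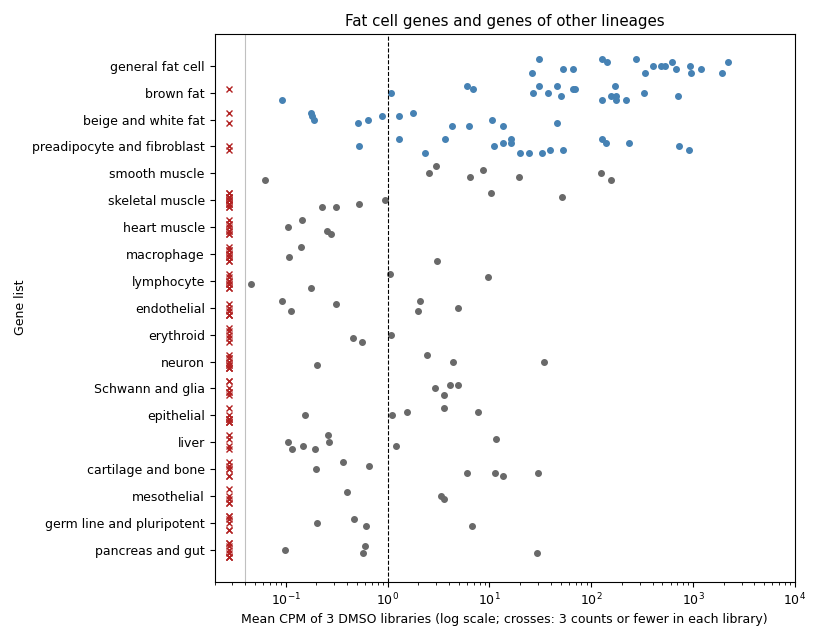
Mean CPM over the 3 DMSO libraries (log axis) of every gene in 19 lists, fat cell and precursor lists in blue and other lineages in grey; red crosses left of the grey line are genes with no more than 3 counts in each library, and the dashed line marks 1 CPM. General fat cell genes all lie above 10 CPM, smooth muscle is the other-lineage list with most genes above 1 CPM, and the heart list has none there.

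Muscle genes divided by type. The skeletal muscle regulators Pax7, Myf5, Myf6 and Myod1 had no count, and 13 of the 19 genes of that list were silent. Pax3, a regulator of the dermomyotome, the embryonic tissue that gives rise to muscle and to dorsal brown fat, was at 10.1, 8.22 and 12.8 CPM, and Des, the intermediate filament desmin, at 50.5, 52.1 and 53.2 CPM. Of 12 heart genes none reached 1 CPM. Smooth muscle genes were the exception to silence, with 7 of 8 at a mean of 1 CPM or more: Acta2, smooth muscle actin, had 147, 167 and 159 CPM, Tagln (SM22) 109.6, 128 and 136 CPM and Smtn 17.5, 20.7 and 20.5 CPM. Myh11, the myosin of mature smooth muscle, was at 3.63, 2.69 and 2.57 CPM and the regulator Myocd at 0.0343, 0 and 0.153 CPM. Annotated exons of Tagln overlap Pcsk7 and Gm48529 on the opposite strand, and the largest overlap with a single gene covers 877 of 1595 bases. Smtn shares 556 of 3896 bases with Gm11946 and Des 220 of 3028 bases with Gm15179, both on the opposite strand. Whether counting used strand is not given, so part of the counts of Tagln, Smtn and Des may not be their own. Acta2 overlaps no other gene. Fibroblasts activated in culture also express Acta2 and Tagln.

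Other lineages left 1 or a few genes each. Among 13 neuronal genes, 9 had no count, while Map2, a microtubule protein, had 35.8, 34.8 and 32.8 CPM. Bone and cartilage genes included Alpl, alkaline phosphatase, at 31.9, 30.4 and 27.0 CPM, the bone regulator Runx2 at 12.9, 13.6 and 13.8 CPM, Comp at 12.2, 12.2 and 9.89 CPM and Sox9 at 5.00, 6.63 and 6.29 CPM. Runx2 shares 519 of its 7092 annotated bases with Runx2os1 on the opposite strand. The later bone genes Sp7, Bglap and Ibsp stayed under 1 CPM, at means of 0.199, 0.0118 and 0 CPM. Cela1, an elastase of the pancreas in many mammals, stood at 30.6, 28.9 and 29.5 CPM, although Cpa1, Ins1, Ins2 and Pdx1 had no count. Apoa2, an apolipoprotein of liver, stood at 12, 10.6 and 12.3 CPM. Foxp3, the regulator of regulatory T cells, read 9.52, 10.5 and 8.74 CPM with Cd3d, Cd3e and Cd3g of T cells at 0. Its annotated exons overlap Ccdc22, Flicr and Gm36995, and the largest overlap with a single gene covers 590 of 4100 bases. Sycp3, a meiotic gene at 7.16, 6.27 and 6.90 CPM, shares 660 of 1264 bases with Chpt1 on the opposite strand. Of the pluripotency genes, Pou5f1, Sox2, Utf1 and Zfp42 had no count, and Nanog was low but not silent, at 0.582, 0.425 and 0.383 CPM.

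The 3 libraries were close to each other. The common biological coefficient of variation was 6.78% over 13559 genes (edgeR). Of 10920 genes averaging 5 CPM or more, 191 (1.75%) differed by at least 1.5-fold between the highest and the lowest library, and of these 5 had a mean of 50 CPM or more. The median coefficient of variation fell from 18.2% at 1 to 5 CPM, where counting alone gives 12.3%, to 3.99% at 50 to 500 CPM and 3.73% above 5000 CPM, where counting alone gives 0.237%. By a chi-square test of equal shares, 5723 of 13962 genes (41%) had a spread above counting error at an adjusted p under 0.05. That test takes reads as independent molecules and allows for counting error only, so it compares these libraries and not conditions. The 5 markers were among these genes, and none differed by 1.5-fold. Of the 191 genes, 90 were highest in replicate 2, 67 in replicate 3 and 34 in replicate 1.

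Of the lists examined, interferon-response genes had the largest share of members with a wide spread. These genes, which antiviral signalling switches on through STAT and IRF factors, include RNA sensors, enzymes that block viral replication and antigen presentation genes. Of 19 with a mean of at least 5 CPM, 10 (52.6%) differed by at least 1.5-fold, against 1.75% of all genes. In replicate 2, 17 of the 19 were highest and none was lowest. Among all 10920 genes at that mean, 3724 were highest in replicate 2, 3352 lowest there and 4229 lowest in replicate 1. The summed interferon list stood at 678, 965 and 733 CPM in replicates 1, 2 and 3. The median log2 difference from a gene's own mean was -0.16, 0.37 and -0.09. Other lists had their highest median in replicate 2 as well. Of 14 precursor and fibroblast genes 8 were highest there and 6 in replicate 1, with medians of -0.08, 0.11 and -0.02. Ly6a, the surface antigen Sca-1 of precursors, read 9.32, 17.0 and 14.2 CPM, 1.83-fold from lowest to highest. Of 26 genes of the actin and tubulin cytoskeleton, 20 were highest in replicate 2 and 19 lowest in replicate 1, with medians of -0.06 in replicate 1 and 0.06 in replicate 2. The part of these shifts in the interferon result was not tested. For interferon genes without replicate 2, 5 of the 19 differed by 1.5-fold; without replicate 1 it was 8 and without replicate 3 it was 7. The promoters of 4 of these genes are shown because they carry, in capitals, the motif GAAANNGAAA on either strand (TTTCNNTTTC when read on the other), the core of the element bound by STAT and IRF factors. Each is the 200 bases before the start site, 5′ to 3′ on the gene's own strand, from RefSeq on GRCm38.p6.

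Isg15, chr4:156200819-156201018, minus strand: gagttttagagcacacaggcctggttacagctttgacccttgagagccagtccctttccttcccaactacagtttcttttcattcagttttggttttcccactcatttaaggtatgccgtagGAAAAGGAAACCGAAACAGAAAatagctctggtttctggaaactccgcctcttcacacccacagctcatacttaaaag
Bst2, chr8:71537473-71537672, minus strand: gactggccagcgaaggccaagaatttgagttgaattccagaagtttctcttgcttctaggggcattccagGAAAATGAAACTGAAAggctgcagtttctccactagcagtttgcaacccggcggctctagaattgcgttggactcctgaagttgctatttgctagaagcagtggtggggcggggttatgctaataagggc
Ifit1, chr19:34640689-34640888, plus strand: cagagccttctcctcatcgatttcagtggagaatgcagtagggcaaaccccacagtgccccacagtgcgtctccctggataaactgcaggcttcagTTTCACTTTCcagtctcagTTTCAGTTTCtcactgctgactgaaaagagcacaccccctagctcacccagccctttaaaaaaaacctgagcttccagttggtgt
Ifit3, chr19:34583329-34583528, plus strand: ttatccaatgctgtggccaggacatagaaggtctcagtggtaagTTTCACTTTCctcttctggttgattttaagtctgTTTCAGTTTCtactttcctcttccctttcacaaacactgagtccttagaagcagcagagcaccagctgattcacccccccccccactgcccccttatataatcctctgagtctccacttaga

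Of 17 interferon genes with a promoter entry, 6 hold the motif (Bst2, Ifit1, Ifit3, Isg15, Oas1a and Rsad2), as do 746 of all 32851 promoters of this length (2.27%). A match describes the letters, not binding. Neighbouring copies overlap among the 3 in Isg15, as do the 2 in Bst2. Bst2 (tetherin, which holds budding virus on the cell surface) had 71.4, 159.9 and 117 CPM. Isg15, a ubiquitin-like protein, had 21.8, 42.5 and 25.3 CPM. In both, replicate 2 was the highest and replicate 1 the lowest.

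The pattern was not the same for every member. Irf7, the factor that amplifies the response, read 17.4, 40.0 and 24.4 CPM, and the RNA-activated synthetase genes Oas1a and Oasl2 read 2.64, 8.72 and 5.25 CPM and 7.57, 23.0 and 10.7 CPM, 3.31-fold and 3.03-fold from lowest to highest. Ifi44, outside the list, had the same order of libraries at 5.82, 19.5 and 10.4 CPM. Ifit3 was highest in replicate 2 but lowest in replicate 3, at 32.0, 45.5 and 20.5 CPM, and Ifit1 was highest in replicate 1, at 20.0, 16.9 and 10.7 CPM. The ratio was smaller for the signalling genes Stat2 and Irf1: Stat2 had 38.4, 46.2 and 38.1 CPM and Irf1 64.2, 63.1 and 61.1 CPM. Phf11d, Ifit3b and Apol9a, named because they were among the 10 widest ratios of all, read 3.70, 9.82 and 5.67, 11.1, 15.2 and 6.48 and 16.5, 38.5 and 21.3 CPM. Of the 12 macrophage genes 8, Ptprc, Adgre1 and the C1q genes among them, were at 0 in every library, and the list summed to 2.71, 3.65 and 3.68 CPM. Most of that sum was Cd68, at 2.26, 3.51 and 3.37 CPM, lowest in replicate 1 and highest in replicate 2 like Irf7; its part in the result was not tested.

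**Figure D5:**
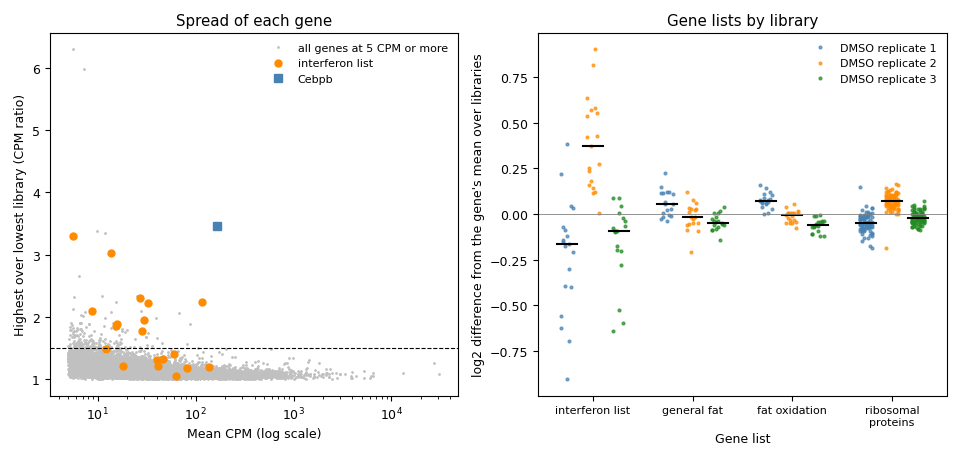
Left, the ratio of the highest to the lowest library (CPM) against the mean CPM (log axis) for genes averaging 5 CPM or more, with the interferon list in orange, Cebpb as a blue square and a dashed line at 1.5-fold. Right, the log2 difference of each gene from its own mean over libraries for 4 lists, 1 point per gene and library with a black bar for the median: interferon genes are high in replicate 2, by more than fat cell, fat oxidation or ribosomal protein genes differ in any library. The 2 grey points above Cebpb are predicted genes.

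Cebpb (chr2:167688915-167690418), a factor that starts the fat cell program and also answers to stress and cyclic AMP, had the widest ratio of genes averaging 5 CPM or more apart from 2 predicted genes, at 284, 82.1 and 129 CPM (8290, 2317 and 3368 counts). It was highest in replicate 1 by 3.46-fold over replicate 2. Without replicate 1 the ratio was 1.57, and without replicate 2 it was 2.20. No annotated exon of another gene overlaps it. Beside it, Cebpa (531, 499.6 and 489 TPM) exceeded Cebpb (446, 127 and 202 TPM) by a ratio of 1.19, 3.95 and 2.43 in the 3 libraries. Dcdc2c, with 15.8, 4.68 and 8.89 CPM, had the same order of libraries, and Taf10, a subunit of the general transcription factor TFIID, was low only in replicate 2 at 85.3, 41.3 and 76.8 CPM. Of 23 genes of the integrated stress response 2 (8.70%) differed by 1.5-fold, Cebpb itself and Chac1, against 1.75% of all genes. Of 15 immediate early genes 2 (13.3%) did. Egr1 read 31.5, 38.5 and 52.3 CPM and Fos 7.19, 8.90 and 11.3 CPM, both highest in replicate 3.

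Smaller shifts ran through whole lists without any member reaching 1.5-fold. Of 19 genes of mitochondrial fatty acid oxidation, 17 were highest in replicate 1 and 16 lowest in replicate 3, with median log2 differences of 0.07, -0.01 and -0.06. General fat cell genes had the same order, with medians of 0.05, -0.02 and -0.05. Ribosomal proteins were highest in replicate 2 in 71 of 79 genes, with medians of -0.05, 0.07 and -0.02. Among all 10920 genes averaging 5 CPM or more, 3308 were highest in replicate 1, 3724 in replicate 2, and 3339 lowest in replicate 3. Ribosomal protein messages are short, and the 1082 shortest genes had medians of -0.02, 0.03 and -0.01, against -0.01, -0.01 and 0.02 for the 1082 longest; the part of length in the shift was not tested. Heat shock, hypoxia, cholesterol synthesis, cell cycle and circadian clock lists had no gene at 1.5-fold.

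At the other end, 10 genes averaging 100 CPM or more varied least. Hnrnpl, an RNA-binding protein, had 182.3, 182.1 and 182.3 CPM, a coefficient of variation of 0.074%, and the ribosomal protein gene Rpl7 463, 462 and 463 CPM. Both coefficients are below the median of 1.97% that counting alone gives at 50 to 500 CPM. The rest were Ndufs3 of complex I, Tef, Rhob, Hnrnpu, Ago2, Chmp4b, Cs and Slc25a10, with coefficients of 0.215% to 0.299%.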

How the data were processed

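RNA-seq counts of 3 DMSO libraries of mouse brown adipocytes were used. RNA was taken up in Trizol and converted with a NEBNext Ultra RNA kit, per the labels' protocols. Reads were handled with TopHat2 (no version stated) on mm10, per the submitters' processing notes. The deposited values are raw counts of reads per gene symbol. How reads were counted (program, annotation, strand, multi-mapped reads) is not given in the sources used, so values of near-identical copies and of overlapping genes are uncertain.

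Counts were divided by library totals (CPM). Merged exon lengths came from GENCODE M21 (GRCm38); 24919 genes matched by symbol, 454 through RefSeq synonyms, and 841 had no length. Rows with lengths under 200 bases were left out of TPM, leaving 24037 genes. A family leader was dominant at 80% of the family's TPM in each library. Spread was the highest over lowest CPM, at 1.5-fold and a mean of 5 CPM, and a chi-square test per gene with at least 10 expected counts, adjusted by the Benjamini-Hochberg method. Its code was checked on simulated counts that held counting error alone, which does not bear on spread between libraries. edgeR 4.0.16 gave dispersions (R 4.3.3), and Python 3.11.15 with scipy 1.17.1 the rest.

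Members and gene lists were chosen with earlier results of these data known. Named genes were the 5 markers, the 20 most abundant genes, leading and second family members, the 6 highest members of each lineage list above 1 CPM, the 10 widest and the 10 narrowest spreads and up to 3 per spread list. Predicted genes and small RNAs were not named there. Some genes and families that these rules cover are not reported here. Other genes were named after their values were seen. Alternatives covered scaling, length, thresholds and each library left out.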

Additional observations from a re-analysis of the deposited data

How the results depend on the processing

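Levels per length depend on gene models, and the libraries' depth limits statements on genes near 0.1 CPM. The share of counts in the 100 most abundant genes was 23.4% without Rn45s and 30.7% per length. At a threshold of 70%, 38 families had a dominant gene. With silence set at a mean below 0.5 CPM, 14 Hox genes were silent. The number of genes with at least 1.5-fold spread was 974 at a mean of 1 CPM, 24 at a mean of 20 CPM and 23 at 2-fold, and leaving out each library in turn gave 79 to 94; with 2 libraries left, a ratio has fewer chances to be wide. The chi-square calls numbered 2929 to 3590 when each library was left out. Without length correction the leader and second gene changed places in 7 of 66 families compared, with log2 differences of -0.15 for hexokinases, -0.37 for pyruvate dehydrogenase kinases, -0.67 for uncoupling proteins, -0.15 for COX7A, -0.24 for isocitrate dehydrogenases, -0.55 for superoxide dismutases and -0.24 for metallothioneins. Metallothioneins also reversed, at -0.14, with the longest RefSeq-matched transcript, a setting chosen after seeing the data. For Irs1 over Irs2, leaving out 1 library gave -0.0046 (without replicate 1) to 0.14. Creatine kinases gave no value without replicate 1, as Ckmt1 was then at 0. No paired analysis was possible because a single group was described.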

Other observations

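Some values belong to no list or to no statement above, and the genes named here were chosen after their values were seen. Mb, the oxygen carrier myoglobin of muscle, had 1540, 1476 and 1427 CPM in replicates 1, 2 and 3, while the skeletal and heart muscle genes described above were mostly silent. The nuclear long noncoding RNAs Malat1 and Neat1 had means of 2157 and 1263 CPM.

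Plasma protein genes of the liver were seen in replicate 1 and hardly in the others. Alb (albumin) had 107, 0 and 0 counts in replicates 1, 2 and 3, Apob 22, 1 and 0, Serpina1e 22, 1 and 0, Serpina1c 16, 0 and 0, Fga 15, 0 and 0, Mup20 14, 0 and 0 and Ttr 13, 0 and 0. The liver list without Apoa2 summed to 194, 14 and 3 counts. The liver regulator Hnf4a had 2, 0 and 0 counts. The source of these counts was not tested, and replicate 1 was also the library with the highest Cebpb. Genes with at least 10 counts in 1 library and no more than 3 in each of the others numbered 55, 45 and 20 for replicates 1, 2 and 3.

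Xist, the RNA that silences 1 X chromosome in female cells, had 39.9, 46.8 and 36.2 CPM, in the same libraries as the Y-linked genes Ddx3y (53.6, 64.4 and 78.2 CPM), Eif2s3y (50.6, 50.4 and 50.5 CPM), Uty (30.3, 33.2 and 34.4 CPM) and Kdm5d (30.3, 27.0 and 27.6 CPM). Both kinds were present in every library, and how they came together was not tested. Eif2s3y varied by 0.148% (coefficient of variation).

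Of 11165 genes with at least 100 counts in every library, 34 had exactly the same 3 counts as another gene. Among them were Ndufs5 and its copy Ndufs5-ps with 4893, 4617 and 4291 counts each, Btg3 and the copy Gm7334 with 682, 725 and 784, and Fam177a and Fam177a2 with 5016, 4810 and 4894. These lie at separate places in the genome, while Snrpn and Snurf, with 222, 191 and 223 counts each, overlap. The levels of such copies are therefore uncertain.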
